A study of Mus musculus with 4 samples.

Results

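The genes described are those for the proteins of the mitochondrial ribosome. They were chosen by name alone: a probe set counted when the array's probe table gave it exactly 1 gene symbol and that symbol began with Mrpl or Mrps followed by a digit. This gave 76 genes with 156 probe sets, out of 18193 genes that had a probe set of their own, and each gene was represented by its probe set with the highest mean. Of the 76, 49 were counted with the large subunit and 27 with the small one, by symbol except for Mrps30 and Mrps18a. Mrps30 and Mrps18a are among the 49 of the large subunit, where their proteins sit in spite of the names. Mrps36 was counted with the small subunit by its name, although it is now described as part of another complex.

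RNA of the whole hippocampus of the left side was measured in 4 wild-type mouse samples, each on 1 array, and the labels number them 11, 13, 15 and 17. All belong to 1 group with no treatment and no mutant, so the design implies the level of each gene in this tissue and its spread between samples, and no contrast between conditions. The labels give neither the strain nor the age of the animals. The title of the study also names protein and imaging methods, which were not analysed here. The values are log2 intensities, on which a difference of 1 is a doubling, and the small number of arrays limits their precision.

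Mitochondria keep a small genome, and its messenger RNAs are read by a ribosome of their own. All proteins of that ribosome are coded in the nucleus, made in the cytosol and imported, whereas its ribosomal RNAs come from mitochondrial DNA. It makes only core subunits of the respiratory chain and ATP synthase, most of which work beside partners from nuclear genes, and it is attached to the inner membrane. Neurons depend on this machinery for the ATP that ion pumping and transmission consume, and inherited defects of several of its proteins cause disease of brain, heart or liver.

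Within the 150 bases before their start, 3 of the 6 genes with the largest spread between samples carried a match to the motif of NRF1, a transcription factor known for its part in the expression of nuclear genes for mitochondrial proteins. These 3 are shown because of that match. Mrpl36, Mrps26 and Mrpl28, the others of the 6, are not. The shares of all members and of all genes with a match in those 150 bases are not given here. The motif is therefore not linked to the spread. Each stretch is read up to the start site of the RefSeq table (GRCm38.p6), 5′ to 3′ on the gene's strand, with the NRF1 match GCGCANGCG, found on either strand, in capitals. Mrpl10 lies on the plus strand at chr11:97041432-97041581, Mrpl17 on the minus strand at chr7:105811088-105811237, and Mrpl39 on the minus strand at chr16:84735245-84735394. None of these stretches lies inside another annotated gene.
Mrpl10: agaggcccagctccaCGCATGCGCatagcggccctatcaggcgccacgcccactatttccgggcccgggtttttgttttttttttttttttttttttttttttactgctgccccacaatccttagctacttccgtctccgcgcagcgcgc
Mrpl17: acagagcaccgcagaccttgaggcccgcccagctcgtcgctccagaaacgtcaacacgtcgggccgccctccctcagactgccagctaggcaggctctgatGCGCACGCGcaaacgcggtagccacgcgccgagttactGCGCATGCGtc
Mrpl39: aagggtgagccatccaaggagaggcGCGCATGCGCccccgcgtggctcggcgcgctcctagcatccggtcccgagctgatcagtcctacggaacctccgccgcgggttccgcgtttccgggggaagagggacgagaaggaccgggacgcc

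Counting back from the start site, the match in Mrpl10 ran from -135 to -127. Mrpl17 held a pair of matches, from -49 to -41 and from -11 to -3, and Mrpl39 a pair that overlap from -125 to -116. In Mrps26, NRF1 matches lay across and after the start site. Over the 67 members with an entry in the promoter table, whose windows run from 250 bases before to 50 after the start, 22.4% held at least 1 NRF1 match. The share was 17.9% over the 5428 genes above background with an entry and 7.03% over all 27025 genes of the table. The ETS motif CCGGAAG, which GABP binds, occurred in 37.3% of the members, against 20.8% of genes above background and 9.93% of all genes. The YY1 motif AAGATGGC occurred in 17.9% of the members, 6.12% of genes above background and 3.19% of all genes. The GC box GGGCGG of SP1 was in 50.7% of the members, below the 73.3% of genes above background and above the 38.2% of all genes. The cyclic AMP response element TGACGTCA was in 2 member windows, 2.99%, beside 3.83% of genes above background. All motifs were searched on both strands, and a match is a run of letters, not a measured binding site.

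A start of another gene on the opposite strand lay within 1000 bases upstream for 25 of the 67 members, or 37.3%, against 19.7% of genes above background and 12.3% of all genes. One such pair joins a member of each subunit: the starts of Mrps11 and Mrpl46 are 42 bases apart. The 41 bases between them, at chr7:78783090-78783130 on the strand of Mrps11, are shown because all upstream sequence between the pair fits in this stretch; the pair was picked after its values had been seen, and the capitals mark a GC box.
Mrps11 to Mrpl46: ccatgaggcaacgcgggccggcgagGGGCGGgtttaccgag
Mrps11, a small subunit protein of bacterial type, read 7.19, 7.42, 7.23 and 7.18 in samples 11, 13, 15 and 17. Mrpl46, a large subunit protein with no bacterial counterpart, read 7.88, 8.17, 8.14 and 8.08. Both were highest in sample 13, but Mrpl46 was lowest in sample 11 and Mrps11 in sample 17. Some other members faced a gene of mitochondrial function: Mrps12 faced Sars2 at 147 bases, Mrpl43 faced Twnk at 116 bases, and Mrpl47 faced Ndufb5 at 308 bases. These were picked for that function, and the partners of further members included Klc4, Psma2 and Gga3. Sars2, a mitochondrial seryl-tRNA synthetase, and Twnk, the helicase of mitochondrial DNA, had mean levels of 4.84 and 6.65, both under background. Ndufb5 was above background, with a mean level of 10.31.

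At the background limit used here, nearly all members had a transcript above background in hippocampus. Background was set at 7.03, taken as the 95th percentile over 43 genes not expected in this tissue, such as genes of skin and gut. Of the 76 members, 69 were above it, or 90.8%, where 36.5% of all genes were (6648 of 18193). In every single sample 67 were above it. The large subunit had 45 of 49 members above the limit and the small subunit 24 of 27. The same share was 78.7% for the cytosolic ribosome (37 of 47 genes). It was 87.2% for nuclear genes of the respiratory chain and ATP synthase (82 of 94). Both lists were taken by symbol alone, so they also hold genes whose proteins are not subunits. Among these are Rps19bp1 in the first list and assembly factors such as Ndufaf1 and Sdhaf1 in the second. With the limit at the 99th percentile, 42 of the 76 members remained above it, so the count depended on the limit. The share of all genes at that limit is not given here, so the 42 are not set against it.

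The 7 members under the limit were Mrpl1, Mrpl33, Mrpl50, Mrpl54, Mrps27, Mrps31 and Mrps35. Their means ran from 6.16 ± 0.173 for Mrpl33 to 6.90 ± 0.0731 for Mrps31 (SD, n = 4). All were thus within 1 log2 unit of the limit, and a probe set under it says nothing firm about the transcript, since probes differ in how well they bind.

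The choice of probe set mattered more to the level than the sample did. In Mrpl13, a large subunit protein of bacterial type, the highest probe set had a mean of 9.17 and the lowest of 2.62. Mrpl42 showed 9.25 and 2.77, Mrpl41 9.73 and 3.36, and Mrpl15, with 8 probe sets, 8.80 and 2.79. These differences, from 6.55 to 6.01 log2 units, were far larger than the SD between samples of any member. Levels of different genes are therefore not compared here. Of the members, 34 had 1 probe set of their own. Mrpl30 and Mrpl53 were not members because their probe set also carried the symbol of another gene, Gm6238 or Ccdc142. Mrps34 was kept on a probe set of its own, although a further probe set is shared with Nme3.

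Across the samples the members moved over a narrow range, and most of them were lowest in sample 11. The SD of the 69 members above background ran from 0.0250 to 0.291 with a median of 0.0987, where the median over all genes above background was 0.0816. The order of these medians depended on sample 11 and on the scaling. Without sample 11 they were 0.0502 and 0.0653, and after centring each array on its median 0.0704 and 0.0717. The median deviation of the members from their own means was -0.11 in sample 11. It was 0.022, 0.034 and 0.042 in samples 13, 15 and 17. Sample 11 was thus the low one, and the other samples lay close together.

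**Figure D1:**
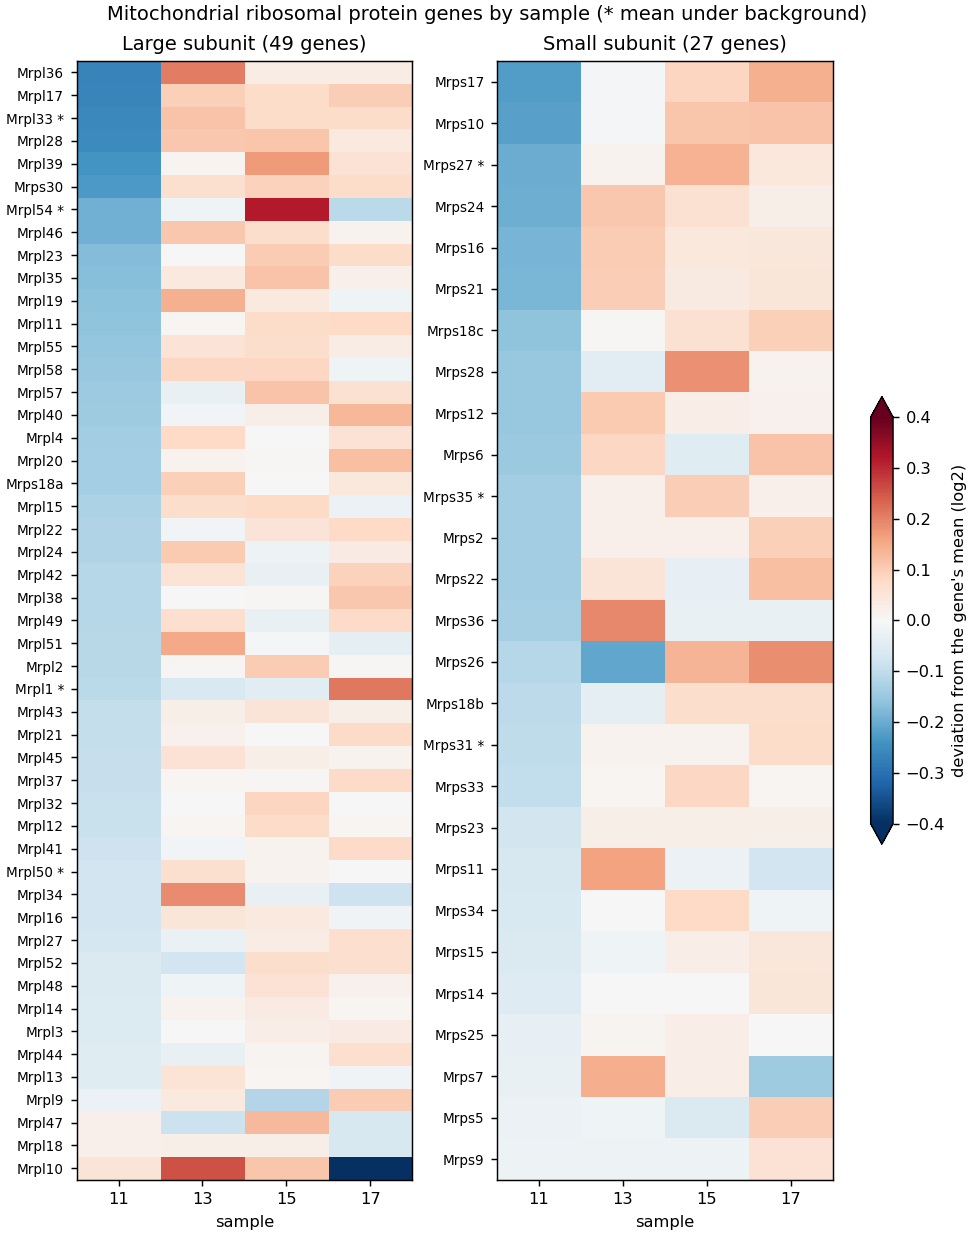
Deviation of each of the 76 genes from its own mean over the samples (log2, colour), for the 49 large subunit genes on the left and the 27 small subunit genes on the right, by sample; genes are ordered by sample 11 minus the mean of the others, an asterisk marks a mean under background, and colours end at ±0.4. The column of sample 11 is blue for nearly all genes, and Mrpl10 in sample 17 lies beyond the colour range.

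In sample 11, 58 of the 69 members had their lowest value, or 84.1%, beside 48.1% of all genes above background. The count was 39 of 45 in the large subunit and 19 of 24 in the small subunit. None of the 69 was highest in sample 11, where 9.27% of all genes above background were. Sample 11 was below the member's own mean in 66 of 69, or 95.7%, and in 73.7% of all genes above background. For 37 members, 53.6%, the gap between sample 11 and the next sample was wider than the whole range of the other samples, which held for 20.4% of all genes above background. Over the members the median of sample 11 minus the mean of the others was -0.15, or 1.11-fold lower, against -0.059 over all genes. Of the 5661 genes with a mean inside the members' range of levels, 48.8% were lowest in sample 11.

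The same comparison was made for the cytosolic ribosome, which translates nuclear messages, and for the respiratory chain, whose core subunits the mitochondrial ribosome makes. Of the genes above background on the cytosolic ribosome list, 70.3% were lowest in sample 11, with a median deviation of -0.037 there. Of those on the respiratory chain and ATP synthase list, which includes assembly factors, 76.8% were lowest in sample 11, with a median deviation of -0.048. The median over all genes was -0.045. The members' median of -0.11 was thus lower than those of both lists. The lists were not matched for level, and their median levels were 10.97 and 10.48 beside 8.26 for the members. Their median SDs were smaller as well, at 0.0465 and 0.0519 beside 0.0987. The sample is 1 array, so the difference between lists has no test.

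**Figure D2:**
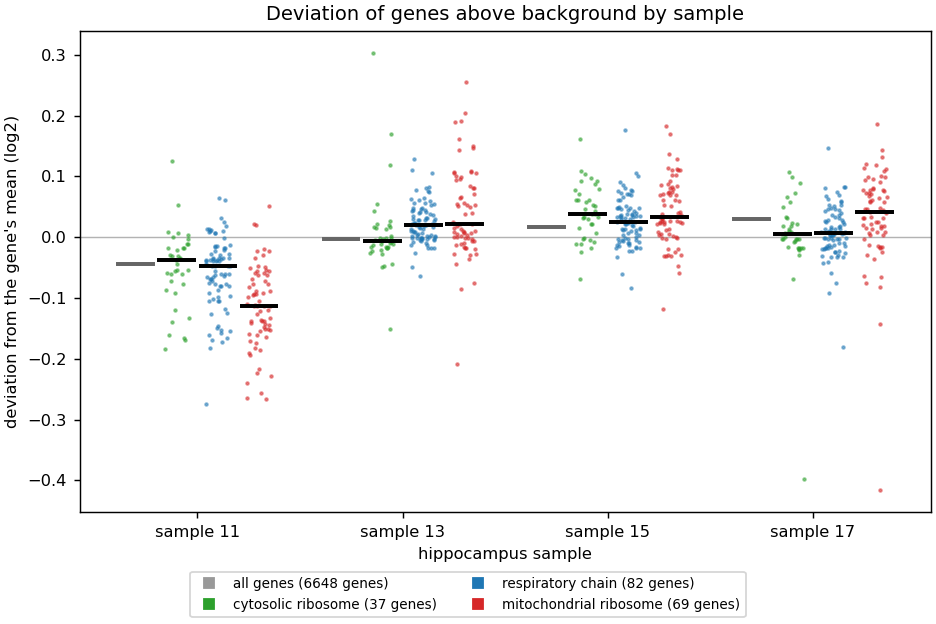
Deviation from the gene's own mean (log2, vertical axis) in each of the 4 samples for genes above background: points are single genes, bars are medians, and all 6648 genes are shown by their median alone. The points of the mitochondrial ribosome (red) lie lowest in sample 11, with a median of -0.11 beside -0.045 over all genes, and the lone red point at the bottom of sample 17 is Mrpl10.

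The arrays were not on exactly the same footing. The median over genes above background was 8.24 in sample 11 and 8.30, 8.32 and 8.33 in the others, so that these genes were lower in sample 11 as a whole. When the 4 columns were quantile normalized again, 75.4% of the members and 35.8% of all genes were lowest in sample 11. When each column was centred on its median over genes above background, the shares were 62.3% and 25.4%. The members' median deviation in sample 11 was -0.079 after the first scaling and -0.053 after the second, so it kept its sign. After centring, the median deviation turned positive for all genes (0.016), the cytosolic ribosome (0.023) and the respiratory chain (0.013). Centring makes the median level of genes above background equal in all columns, so the small value for all genes follows largely from the scaling. Of the 69 members, 1 was highest in sample 11 after quantile normalizing again and 4 after centring. Over all genes above background, 1481 of 6662 and 2339 of 6648 were.

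**Figure D3:**
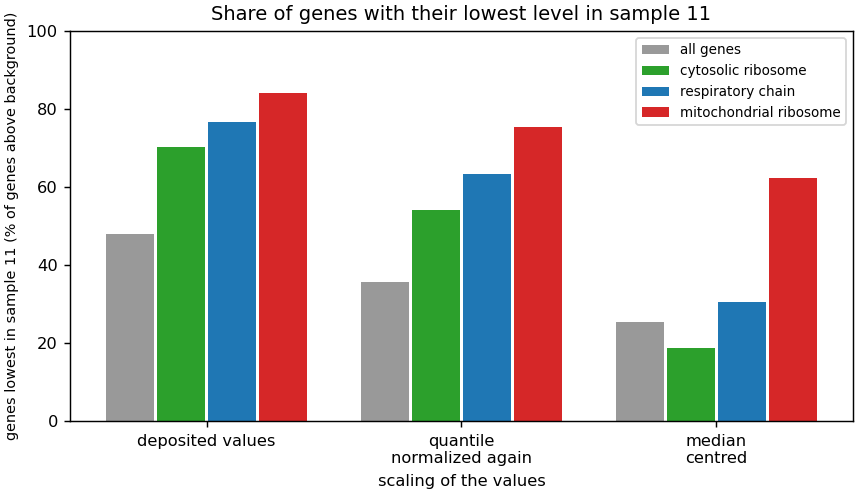
Share of genes above background with their lowest level in sample 11 (percent, vertical axis from 0), for all genes and the 3 gene lists, under the deposited values and 2 other scalings (horizontal axis). All bars are lower after rescaling; the mitochondrial ribosome has 84.1%, 75.4% and 62.3%, and all genes have 48.1%, 35.8% and 25.4%.

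Signs of RNA quality and markers of the cell types of the hippocampus were measured on the same arrays. The 3′ minus 5′ difference of the Gapdh control probe sets, which grows as RNA is shortened, read 0.62, 0.62, 2.64 and 3.79 over samples 11, 13, 15 and 17. That of beta-actin was 1.10, 1.25, 1.93 and 2.33. These differences were larger in samples 15 and 17 than in samples 11 and 13. All 8 neuron markers were above background, and their median deviation in sample 11 was 0.0063, with Snap25 at 11.48, 11.43, 11.41 and 11.44. The summed level of the neuron list ran from 13.92 to 13.96. Of the 7 measured myelin markers 6 were above background, and their summed level was 12.87 in sample 11 and 13.25 in sample 13. All 6 were highest in sample 13, and all 6 were below their own mean in sample 11, with a median deviation of -0.20 there. Several lists of other cells had a negative median deviation in sample 11 too. All 5 markers of CA1 pyramidal cells were below their own mean there, at a median of -0.16. Their summed level was 11.09 in sample 11 and 11.05 to 11.38 in the others. Of the 3 microglia markers above background 2 were below their mean, at a median of -0.16, and of the 3 dentate granule cell markers 2 were, at -0.13. Of the 6 astrocyte markers 4 were below their mean, at -0.087, and of the 2 CA3 markers 1 was, at -0.059. The endothelial markers lay at 0.044, with 1 of 3 below its mean. In sample 11 the medians of the myelin, CA1, microglia and dentate lists were thus lower than the -0.11 of the members. Sample 11 was not the lowest throughout: of the 6 myelin markers 4 were lowest in sample 17 and 2 in sample 11. Of the 5 CA1 markers 3 were lowest in sample 17 and 2 in sample 11. The dentate median was -0.13 in samples 11 and 13 alike. Of the 5 choroid plexus markers only Ttr was above background, at 7.36, 9.84, 6.86 and 6.54, again highest in sample 13. None of the 4 measured blood markers was above background. The part of cell composition, RNA quality and handling in the members' values was not tested. In whole tissue, fewer cells of a type and less RNA per cell cannot be told apart.

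Among the members by role, the stalk of the large subunit, where translation factors dock, holds Mrpl10, Mrpl11 and Mrpl12. Mrpl10, the base to which Mrpl12 binds, read 8.57, 8.77, 8.63 and 8.10 in samples 11, 13, 15 and 17. Mrpl11, which forms the docking site with ribosomal RNA, read 8.61, 8.77, 8.84 and 8.84. Mrpl12, the stalk protein itself, read 8.71, 8.80, 8.87 and 8.80. Mrpl10 had the largest SD of all members above background (0.291), and its lowest sample was 17, 1.59-fold below its highest. Mrpl11 and Mrpl12 were lowest in sample 11 instead, so the stalk genes did not vary in the same order.

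At the exit of the tunnel, through which the new protein leaves toward the inner membrane, 6 genes were listed and all were above background. Mrpl17 read 8.49, 8.85, 8.83 and 8.85, so that sample 11 stood 1.28-fold below the mean of 3 nearly equal samples. Mrpl23 read 8.76, 8.94, 9.04 and 9.01, and Mrpl45, which tethers the ribosome to the membrane, read 8.04, 8.19, 8.15 and 8.14. Both were lowest in sample 11 as well. Mrpl22 read 8.55, 8.66, 8.72 and 8.75, and Mrpl24 read 8.21, 8.44, 8.31 and 8.37, lowest again in sample 11. Mrpl47 read 7.76, 7.66, 7.87 and 7.68 and was the exception, lowest in sample 13.

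The 5 listed proteins next to the peptidyl transferase centre, where peptide bonds form, were all lowest in sample 11. Mrpl2 read 7.99, 8.11, 8.20 and 8.11, and Mrpl3 read 7.74, 7.79, 7.82 and 7.82. Mrpl4 read 8.25, 8.47, 8.39 and 8.45. The differences were small: Mrpl3 had 1 of the smallest SDs among the members (0.0395), and Mrpl4 had an SD of 0.0995. Mrpl16 read 8.13, 8.25, 8.24 and 8.19. Mrpl27 read 9.82, 9.86, 9.92 and 9.96, so sample 11 was only 0.042 below the next sample.

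On the decoding side of the small subunit, where codon and anticodon meet, Mrps12 read 8.71, 8.97, 8.89 and 8.88. Mrps5 read 7.34, 7.35, 7.30 and 7.46. Mrps12 was lowest in sample 11, and Mrps5 in sample 15 by a margin within its SD of 0.0688. The paralogues of bacterial protein S18 occupy different places, Mrps18a in the large subunit and Mrps18b and Mrps18c in the small one. Mrps18a read 9.18, 9.41, 9.31 and 9.36, Mrps18b 7.75, 7.82, 7.93 and 7.93, and Mrps18c 8.10, 8.27, 8.32 and 8.35. All 3 were lowest in sample 11, but Mrps18a was highest in sample 13 and the other two in sample 17.

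Human disease genes of the mitochondrial ribosome had 11 mouse counterparts on the list, all above background, and 10 of them were lowest in sample 11. Mrps16, whose loss in patients causes severe lactic acidosis, read 8.80, 9.08, 9.02 and 9.03. Mrps22, linked to cardiomyopathy and ovarian failure, read 7.92, 8.11, 8.02 and 8.17. Mrpl44, linked to cardiomyopathy, read 8.34, 8.36, 8.40 and 8.46. Sample 11 was lowest in each of these, by 0.23 in Mrps16 and by only 0.020 in Mrpl44. Mrps2 read 7.38, 7.54, 7.54 and 7.61, and Mrps28 read 6.97, 7.08, 7.31 and 7.14. Mrps34, linked to Leigh syndrome, read 9.28, 9.34, 9.42 and 9.33. Mrps7 read 7.71, 7.89, 7.77 and 7.60 and was the exception, lowest in sample 17. Mrps14 read 9.46, 9.51, 9.51 and 9.56. Mrps25 read 7.70, 7.75, 7.76 and 7.73 and had the smallest SD of the members above background (0.0250). Mrpl3 and Mrpl12, described above, complete the list.

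The members with the largest SD after Mrpl10 were Mrpl36, Mrps26, Mrpl17, Mrpl28 and Mrpl39. Mrpl36, a small protein of bacterial type, read 6.96, 7.43, 7.25 and 7.25, with sample 11 under the background limit. Mrpl28 read 8.44, 8.80, 8.80 and 8.73. Mrpl39 read 8.66, 8.91, 9.07 and 8.96. In these members sample 11 was the low one, from 1.25-fold to 1.28-fold below the mean of the others. Mrps26, a small subunit protein without a bacterial counterpart, read 9.09, 8.99, 9.34 and 9.39 instead, with samples 11 and 13 low and samples 15 and 17 high. At the other end, Mrps9 read 7.05, 7.05, 7.05 and 7.13 and Mrpl14 read 7.31, 7.38, 7.40 and 7.37. Mrps9 held the same value in 3 samples; 14 of the 76 members held equal values in at least 2 samples.

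**Figure D4:**
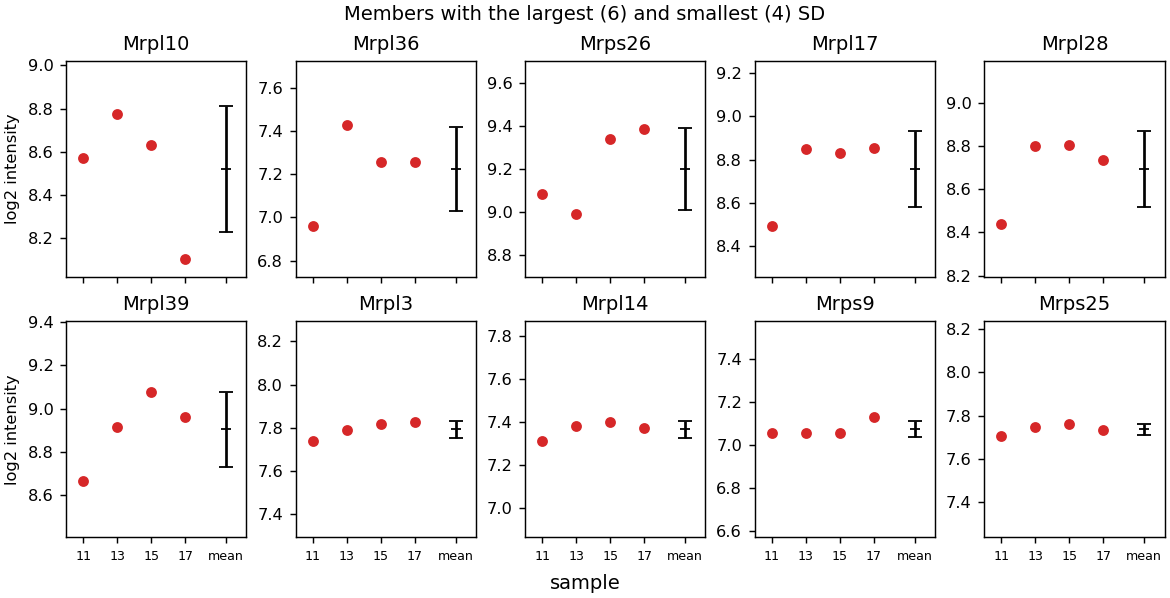
Log2 intensity (vertical axis, 1 unit in each panel) of the 6 members with the largest and the 4 with the smallest SD above background, by sample; red points are samples and the black bar is the mean ± SD (n = 4). Mrpl36, Mrpl17, Mrpl28 and Mrpl39 are low in sample 11, Mrpl10 is low in sample 17, and the last 4 panels are nearly flat.

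Of the members lowest elsewhere, Mrpl18, Mrps11, Mrps7, Mrpl34 and Mrpl10 had their lowest value in sample 17. Mrps5 and Mrpl9 had it in sample 15, and Mrpl52, Mrpl47 and Mrps26 in sample 13. Mrps9 was tied. Mrps36, named as a ribosomal protein but now described as a part of the 2-oxoglutarate dehydrogenase complex, read 7.78, 8.10, 7.88 and 7.88 and was lowest in sample 11 too. Mrpl58, a peptidyl-tRNA hydrolase built into the large subunit, read 8.43, 8.66, 8.66 and 8.56. The 17 further members of the large subunit had SDs from 0.0507 to 0.128, and 14 of them were lowest in sample 11. The 5 further members of the small subunit (Mrps10, Mrps15, Mrps17, Mrps21 and Mrps33) had SDs from 0.0455 to 0.161, and all were lowest in sample 11.

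Proteins with a bacterial counterpart were set beside those that the mitochondrial ribosome gained. Of the 27 large subunit members of bacterial type above background, 22 were lowest in sample 11, with a median deviation of -0.11 there. Of the 18 large subunit members listed as without a bacterial counterpart, 17 were, also at -0.11. In the small subunit the counts were 12 of 16 at -0.15 for bacterial type and 7 of 8 at -0.10 for the others, which include Mrps36. Mrps18a and Mrps18b were listed as without a bacterial counterpart, although they are paralogues of bacterial protein S18. Mrps18c was listed with the bacterial type.

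Different probe sets of a gene gave a further reading of the same RNA. Besides the chosen ones, 16 probe sets of 13 members were above background, and 14 of these were lowest in sample 11. They lie on the same arrays, where 48.1% of all genes above background were lowest in sample 11. The share over all further probe sets is not given here. In Mrpl39, the chosen set read 8.66, 8.91, 9.07 and 8.96 and the other 7.38, 7.62, 7.66 and 7.66. In Mrps6, a small subunit protein of bacterial type, the sets read 7.64, 7.87, 7.74 and 7.90, and 7.57, 7.93, 7.73 and 7.85. In Mrps24, also of bacterial type, they read 8.34, 8.65, 8.60 and 8.56, and 7.51, 7.73, 7.73 and 7.79. In these genes both sets were lowest in sample 11. In Mrps14 they differed: 9.46, 9.51, 9.51 and 9.56 for the chosen set, and 7.54, 7.62, 7.44 and 7.41 for the other. The lowest sample also differed between the sets of Mrps5 (15 and 11), Mrpl52 (13 and 11) and Mrpl28 (11, 11 and 17).

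**Figure D5:**
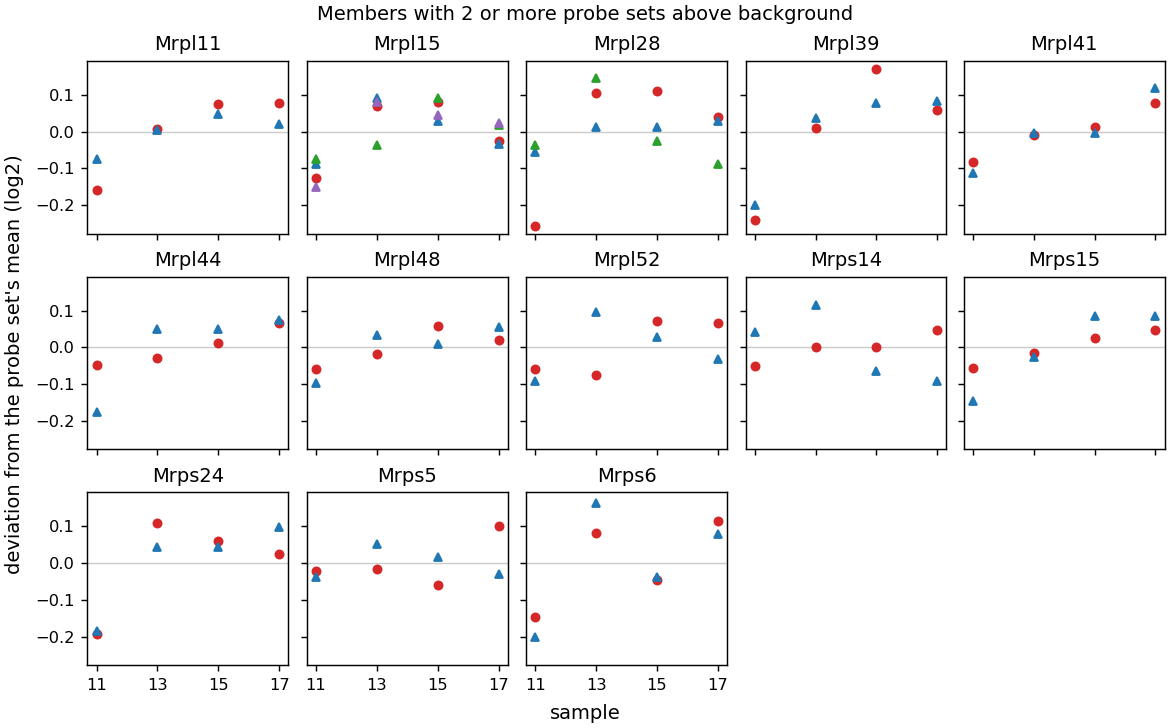
Deviation from the probe set's own mean (log2, vertical axis) by sample for the 13 members with several probe sets above background; red circles are the probe set with the highest mean and triangles the others. The points of Mrpl15, Mrpl39, Mrps6 and Mrps24 lie lowest in sample 11, and those of Mrps14 do not move together.

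A test over every gene with several probe sets above background asked whether differences between samples exceeded the disagreement between a gene's own probe sets. It called 41 of 1860 genes at an adjusted p under 0.05, or 2.2%, and none of the 13 members. At an unadjusted p under 0.05 it found 405 genes and 5 members. The smallest adjusted p values of members (F test with limma's squeezed variance, Benjamini-Hochberg) were 0.0622 for Mrpl15, 0.0879 for Mrpl39 and 0.0982 for Mrps6. The check of this test on made-up data planted SDs of 0.2 and 0.5, larger than the members' median SD of 0.0987. Smaller differences were not tried, so the lack of member calls does not show that they were absent.

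The second test asked which probe sets varied more between samples than usual for their level. In the check on made-up data with variances spread as fitted here, this test found none of the planted changes. Its count of 0 therefore carries no information on the members. With limma, 0 of 10142 probe sets passed, which is 0%, among them 0 of the 85 member probe sets. At an unadjusted p under 0.05 there were 318 probe sets, 1 of them a member's, and the smallest adjusted p was 0.892. The labels call the samples biological replicates. The p-values of the first test set differences between samples against disagreement of a gene's probe sets on the same arrays. Those of the second test set a probe set's variance against the variance usual at its level. Each sample is 1 array, so neither test separates animal from array.

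Other proteins of the same ribosome whose genes carry other symbols gave a reading outside the naming rule. Dap3, a GTP-binding small subunit protein, read 9.66, 9.81, 9.85 and 9.88, and Chchd1 read 8.22, 8.45, 8.48 and 8.39. Gadd45gip1, a large subunit protein, read 7.66, 7.89, 7.90 and 7.78. These were lowest in sample 11 as well. Ptcd3, a small subunit protein with RNA-binding repeats, read 7.44, 7.42, 7.53 and 7.79 and was lowest in sample 13.

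Factors that assemble or serve the ribosome were listed as well. Of 25 measured assembly factors, 10 were above background and 7 of these were lowest in sample 11. Eral1, a chaperone of the small ribosomal RNA, read 7.21, 7.44, 7.65 and 7.66. Malsu1, which keeps the subunits apart during assembly, read 7.26, 7.58, 7.68 and 7.65, and Ngrn 7.52, 7.80, 7.79 and 7.84. In all of these sample 11 was the low one.

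Of 13 measured translation factors and mRNA-binding proteins, 5 were above background and 4 were lowest in sample 11. Slirp, which protects mitochondrial messages with Lrpprc, read 8.50, 8.78, 8.76 and 8.78. Gfm1, an elongation factor, read 7.06, 7.30, 7.25 and 7.25, and Tsfm, the exchange factor of Tufm, read 6.93, 7.05, 7.11 and 7.18. Of 19 measured aminoacyl-tRNA synthetases and related enzymes, 3 were above background and 2 were lowest in sample 11. Rars2 read 7.80, 7.79, 7.83 and 8.06, Fars2 read 7.21, 7.26, 7.45 and 7.34, and Qrsl1 read 7.01, 7.14, 7.24 and 7.17.

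The genes for transcription and upkeep of mitochondrial DNA and for its nuclear regulators were the last list. Of 18 measured, 8 were above background, 2 of these were lowest in sample 11, and their median deviation there was 0.000. Tfam, which packs and activates mitochondrial DNA, read 7.01, 7.26, 7.26 and 7.32 and was lowest in sample 11. Ppargc1a, a coactivator of mitochondrial genes, read 8.19, 8.23, 8.19 and 7.98, and Tfb2m, a transcription factor of mitochondria, read 7.83, 7.85, 7.88 and 7.65. Both of these were lowest in sample 17.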

How the data were processed

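The deposited values are log2 intensities of 45101 probe sets per array, which the authors made with RMA, as listed per the submitters' processing notes; RMA corrects background, normalizes and summarises probes. Its version is not given in the sources used here. Total RNA was DNase treated, amplified and labelled with biotin, per the labels' protocols. Genes came from the platform annotation: 34945 probe sets had 1 symbol, 932 several and 9211 none, and 13 single-symbol control probe sets were left out. All 76 member symbols were unchanged in RefSeq.

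Each gene took its probe set with the highest mean. Spread was tested with limma 3.58.1 in R 4.3.3 (lmFit, eBayes with trend and robust; residual over prior variance as F), and agreement of a gene's probe sets by an F test with squeezeVar, both over the whole table with Benjamini-Hochberg adjustment at 0.05. Both tests were tried on simulated data. The agreement test found 99.5% of planted changes at an SD of 0.2 and 100% at 0.5, with equal noise in all probe sets. Smaller changes and unequal noise were not tried for it. The spread test found none once variances differed between probe sets as fitted here. In 3 of 43 unexpected genes (Lor, Krt10, Tff1) the level was above the limit of 7.03. The members and lists were chosen with earlier results of these data known, and the agreement test after an earlier test of spread gave no calls. Genes were named by role lists, by the largest 6 and smallest 4 SDs, by test calls, and by the 4 largest differences between own probe sets. Alternatives were other scalings, background limits, probe set choices and leaving out each sample. Promoters came from the RefSeq table.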

Additional observations from a re-analysis of the deposited data

Results flagged for a closer look

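The values below are the gap between the most distant sample and its nearest neighbour as a share of the whole range; each is above Dixon's 95% critical value for 4 samples, which chance passes in about 1 in 20 groups. The median deviation of the members stood apart in sample 11 with a share of 0.869, where the share for all genes above background was 0.547. These shares are for the deposited values alone. After centring each array on its median, the members' medians were -0.053, 0.022, 0.011 and 0.0050 over samples 11, 13, 15 and 17. Sample 11 then stood less far from the others, and a share was not computed for this scaling. Of single members, Mrpl17 (0.928) and Mrps30 (0.912) were low in sample 11, as was Mrpl33 (0.889), which is under background. Mrps30 read 7.24, 7.53, 7.56 and 7.54. Mrps23 (1) was low in sample 11 at 7.75 with the other samples equal at 7.85. Mrpl18 (0.992) was low and Mrps9 (1) high in sample 17. Equal values in several samples widen such shares. How many of all genes pass the same rule is not given here, so the number of members that pass is not set against it.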

How the results depend on the processing

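Where a gene took the median of its probe sets in place of the highest, the median member level was 7.42 (8.11 otherwise). Members above background numbered 42 at the 99th percentile, 75 at the 90th and between 47 and 69 under the remaining alternatives. The shares over all genes beside these counts are not given here. Leaving out each sample in turn, the median SD of the members ran from 0.0502 to 0.111, with the lowest value without sample 11. The agreement test called 13 genes with no background filter, 148 at an adjusted p under 0.1, of which 3 were members, and 18 with background at the 90th percentile, an alternative chosen after seeing the data like the other values at that limit and the scalings of the share lowest in sample 11. Leaving out each sample, it called from 3 (without sample 11) to 8 genes. No alternative at the 0.05 threshold called a member in the agreement test; the spread test, which found no planted change in its check with variances as fitted, is not weighed. The members' median deviation in sample 11 was negative in every alternative that kept the sample. The causes were not tested. No paired analysis was possible because there is 1 group.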
